A study of Mus musculus with 42 samples.

Results

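The inner mitochondrial membrane holds the respiratory chain, and 76 nuclear genes for subunits of its complexes I to IV and of ATP synthase (complex V) were described here in macrophages of young and old mice. Members were the protein-coding genes whose mouse symbol follows the names of the NADH dehydrogenase (Nduf), succinate dehydrogenase (Sdh), cytochrome bc1 (Uqcr), cytochrome c oxidase (Cox4 to Cox8) or ATP synthase (Atp5) subunits, with a mean of at least 10 in each of 2 deposited tables. Of 47643 genes in both tables, 94 carried such a name, 10 of them not protein coding. Of the 84 protein-coding genes, 8 were under the mean of 10 and 76 remained, with 35 in complex I, 4 in complex II, 8 in complex III, 12 in complex IV and 17 in complex V. The names did not choose the genes by age or time, so both could be tested. The limit on the mean can depend on age, as Cox6b2 and Ndufs5 reached it in Young but not in Old and were left out.

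Macrophages of C57BL/6 mice were compared between Young mice of 2 to 3 months and Old mice of 18 to 20 months, each at zeitgeber times (ZT, hours of the light cycle) 0, 4, 8, 12, 16, 20 and 24, with 3 libraries per age and time and 42 in all. No genotype or treatment is given, and the labels say neither which organ gave the macrophages nor if a group's 3 libraries stand for 3 animals. P-values therefore measure the spread between these libraries, which may be technical. No batch is labelled either, and the authors normalized each age separately, so any batch that followed age cannot be told apart from it.

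The respiratory chain passes electrons from NADH (complex I) or succinate (complex II) through ubiquinone, complex III and cytochrome c to oxygen at complex IV. Complexes I, III and IV pump protons, and ATP synthase uses the gradient to make ATP. Most subunits are encoded in the nucleus and imported, while a core set comes from the mitochondrial genome. In macrophages the balance between this chain and glycolysis is known to shift with activation.

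Young libraries held 7433159 to 13574542 reads in genes and Old ones 4864402 to 15587030. For levels across ages, reads of all 42 libraries were put on 1 scale by median-of-ratios factors. These rescaled reads come from 3' ends and are not divided by gene length. All 10 macrophage markers examined were measured, and their summed level was 225236 to 340367 in Young and 180474 to 318536 in Old libraries, most of it from Lyz2. In the level test used below, Lyz2, Cd68 and Timd4 were lower in Old, Cd14 was higher, and the other 6 were not called. B cell markers were present too, with a sum of 9551 to 17931 (median 13298) in Young and 10548 to 39753 (median 19958) in Old, and all 8 of them were higher in Old by that test. The T cell markers summed to 650.0 to 1270.1 and 622.0 to 2089.7, and 4 of 7 tested were higher in Old. Markers of mesothelial and fibroblast cells were few, at 2.32 to 29.7 and 24.7 to 144.2, and both that could be tested, Dcn and Krt8, were higher in Old by 3.35 and 1.69 (log2). The erythroid markers were high in 1 Young library at 5028. Of 6 eosinophil markers, Epx was at 0 in every library. The 2 that could be tested went opposite ways in Old, Il5ra higher by 0.82 and Ccr3 at -2.51 (log2). In such bulk samples, fewer cells of a type and less RNA per cell cannot be told apart.

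Promoters were examined first, because nuclear subunit genes are known for sites of the factors NRF1, of the ETS family (GABPA) and YY1. RefSeq promoters (GRCm38.p6) of 250 bases before to 50 after the start were found for 64 of the 76 members. For a member, the window nearest its GENCODE start was used. For the background it was the first one listed per symbol, so the sets were not chosen alike. Genes tested were matched by symbol, which gave 9018 promoters. The NRF1 motif GCATGCGC, searched on both strands, was in 10 of the 64 member promoters (15.6%), against 5.73% of the promoters of genes tested and 2.80% of all promoters. CCGGAAG, for ETS factors, was in 15 (23.4%), against 19.8% and 9.12%. AAGATGGC, for YY1, was in 9 (14.1%), against 5.17% and 2.88%. At least 1 of the 3 was in 29 member promoters (45.3%), 28.0% of those tested and 13.8% of all. A match is a description of letters, not of binding.

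The sequences below show these motifs where they fall within 150 bases before the start of members that were lower in Old, beside Atp5j, which had none in this window and the lowest difference among the genes called. Capitals mark a match on either strand, so CTTCCGG is the reverse complement of the ETS motif, and the 10 capitals of Atp5k hold the NRF1 motif on both strands at once. All are on the minus strand and written 5′ to 3′, and the RefSeq start lies 4 to 49 bases inside the GENCODE gene in the first 4, so the end of the window is transcribed there by that annotation.
Atp5e, chr2:174464102-174464251: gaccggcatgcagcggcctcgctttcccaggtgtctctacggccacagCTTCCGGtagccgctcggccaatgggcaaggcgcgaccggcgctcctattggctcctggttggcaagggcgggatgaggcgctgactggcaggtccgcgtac
Atp5k, chr5:108434400-108434549: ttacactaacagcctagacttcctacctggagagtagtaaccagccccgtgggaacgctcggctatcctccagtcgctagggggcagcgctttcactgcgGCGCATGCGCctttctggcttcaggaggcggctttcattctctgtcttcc
Cox6a1, chr5:115348959-115349108: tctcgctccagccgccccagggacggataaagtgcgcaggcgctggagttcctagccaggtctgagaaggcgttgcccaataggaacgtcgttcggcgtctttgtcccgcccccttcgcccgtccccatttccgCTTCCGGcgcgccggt
Cox6b1, chr7:30626115-30626264: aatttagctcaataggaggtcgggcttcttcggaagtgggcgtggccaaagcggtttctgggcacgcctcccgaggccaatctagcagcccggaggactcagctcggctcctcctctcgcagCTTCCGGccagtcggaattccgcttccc
Atp5j, chr16:84835626-84835775: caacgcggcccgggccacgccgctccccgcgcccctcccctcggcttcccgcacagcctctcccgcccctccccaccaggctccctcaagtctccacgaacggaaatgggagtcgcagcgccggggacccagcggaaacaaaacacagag
Among the 21 matched members called lower in Old, 2 held the NRF1 motif, 5 the ETS and 5 the YY1 motif. Among the 43 not called these numbers were 8, 10 and 4.

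The members were compact genes that often shared a start region with a neighbour. Their longest basic transcript had a median length of 892 bases, against 3151 for protein-coding genes tested. A protein-coding gene on the other strand began within 1 kb of the start of 27 members (35.5%), against 15.2% of the 10901 protein-coding genes tested. Such neighbours were Rps28, a ribosomal protein gene whose start is 10 bases from that of Ndufa7, and Timm8b, an import chaperone gene 98 bases from Sdhd. Of the 23 neighbours that could be tested, 1 was lower in Old, Emc8 beside Cox4i1. The span of another gene model on the same strand overlapped the last 500 bases of 5 members: Ndufa13, Ndufb8, Cox4i1, Cox7c and Atp5o. For Atp5o it was a second model of the same name. Exons were not compared, so whether 3' reads of a pair could be told apart was not tested.

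Averaged over the 7 times, 24 of the 76 members were lower in Old and none was higher. A gene was called where limma's moderated test on log2(rescaled reads + 1), with Benjamini-Hochberg adjustment over the 12086 genes tested, gave an adjusted p under 0.05. The 24 make up 31.6% of the members, against a background of 11.7% of all genes called lower and 12% called higher (23.7% in all). That background was not matched for counts. The median standard error was 0.057 over the members and 0.090 over all genes, so a small difference is called more readily among the members. Without adjustment, 30 members passed p under 0.05 as lower and 1 as higher, Uqcrh, where 16.7% and 17.3% of all genes did. edgeR called 23 lower and none higher (background 11.5% and 12.2%), and DESeq2 23 lower and 1 higher, Uqcrh (11.9% and 13.3%). The estimate was below 0 for 68 members (89.5%), against 49.2% of all genes. The differences were small, with a median of -0.11 (log2 Old minus Young) over the members and 0.00 over all genes tested. At all 7 times the estimate was lower for 17 members (22.4%), against 8.87% of all genes. Members together took 1.04% to 1.22% of the reads in Young (median 1.10%) and 0.917% to 1.14% in Old (median 1.01%), so the ranges over all times overlapped. Within a time, with 3 libraries per age, they overlapped at ZT0 and ZT16. At ZT4, ZT8, ZT12, ZT20 and ZT24 they did not.

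**Figure D1:**
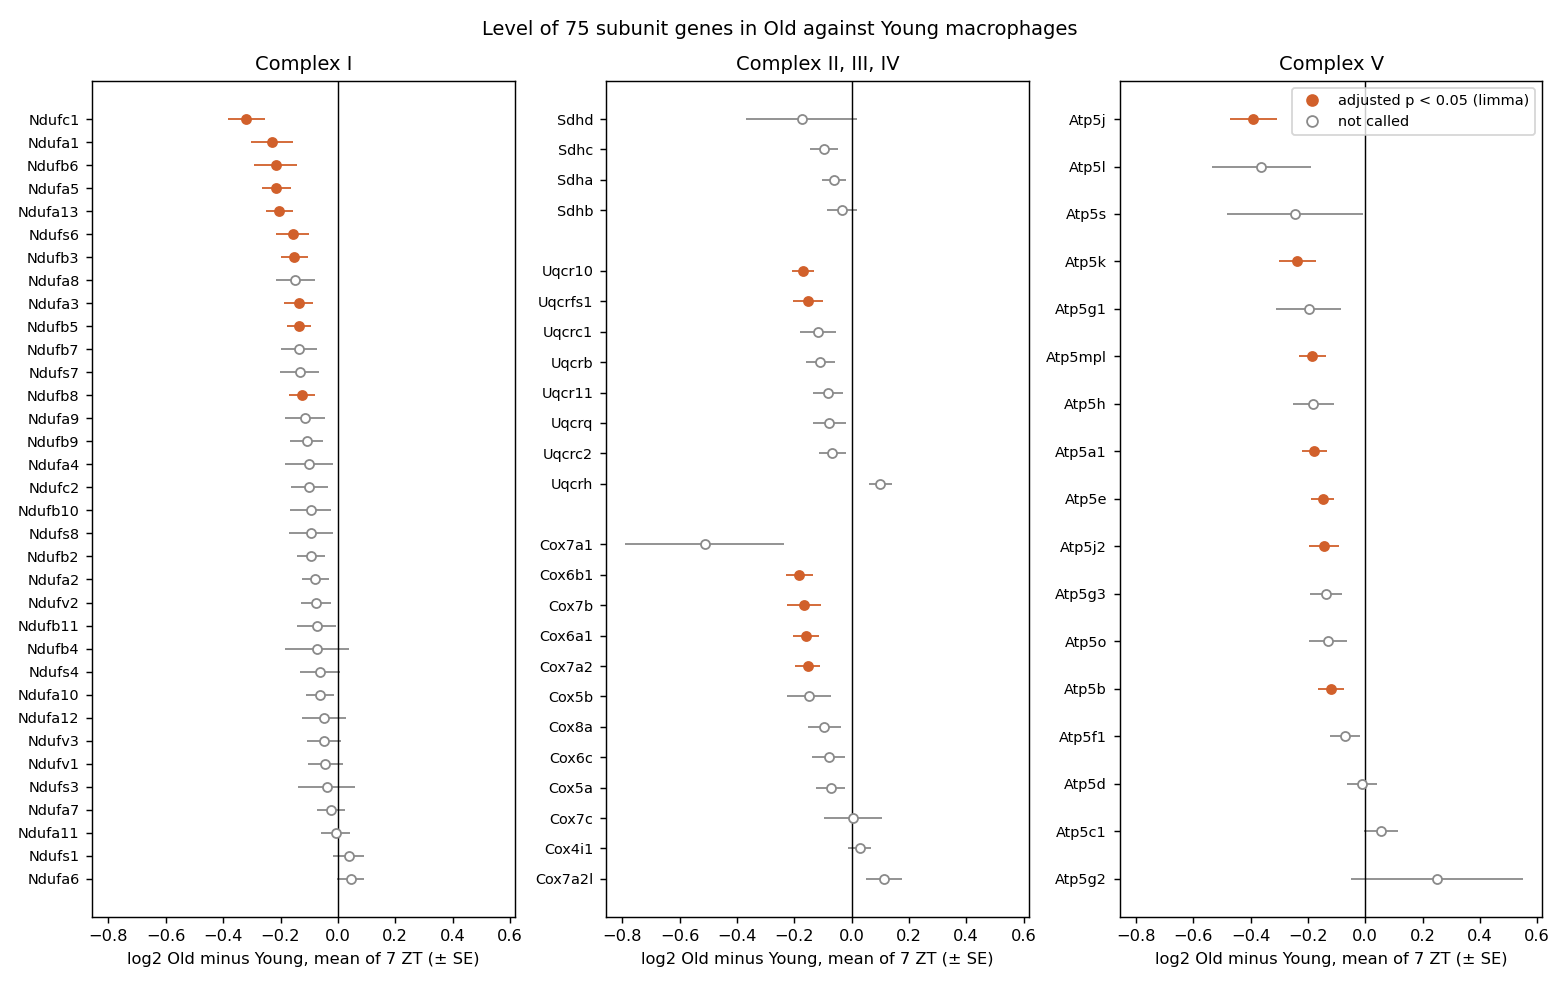
Log2 difference of Old minus Young over the 7 times for 75 of the 76 genes, with its standard error, by complex (n = 21 libraries per age). Filled points are the 23 of these genes that were called, all left of 0, between -0.39 for Atp5j and -0.12 for Atp5b.

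Complex I takes electrons from NADH. Of its 35 genes 11 were lower in Old, with a median of -0.10 over the 35. The accessory subunits of the membrane arm, which surround the proton-pumping core, supplied 8 of these: 4 of 8 among the NDUFA and NDUFC genes and 4 of 10 among the NDUFB genes. The matrix-arm accessory genes supplied 2 of 9, Ndufa5 and Ndufs6.

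Ndufc1 encodes a small membrane-arm subunit (ENSMUSG00000037152, chr3:51404677-51408988, minus strand, GRCm38). Its rescaled reads were 448.1 to 841.9 in Young, with a median of 592.7, and 369.0 to 654.0 in Old, with a median of 462.3. The ages overlapped, but the middle Old library was close to the lowest Young ones. Its level fell by 0.32 ± 0.065 (SE) on the log2 scale, with an adjusted p of 0.000214 (limma). It was lower in Old at 6 of the 7 times, ZT12 being the exception.

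Ndufa13, also known as GRIM-19, is a membrane-arm subunit. It had 1101 to 1698 reads in Young (median 1248) and 825 to 1322 in Old (median 1119), and fell by 0.20 ± 0.047 with an adjusted p of 0.00110 (limma). Its last 500 bases overlap Yjefn3 on the same strand. Ndufa5, a matrix-arm subunit, had 876 to 1677 (median 996) and 708 to 1046 (median 879) reads and fell by 0.21 ± 0.051, adjusted p = 0.00154 (limma). Both were lower in Old at all 7 times, with overlapping ranges.

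Ndufb8, whose protein is often used as the marker of complex I on blots, had 1817 to 2712 (median 2092) and 1563 to 2562 (median 1913) reads and a difference of -0.12 ± 0.046 (adjusted p = 0.0456, limma). Near the threshold, this call was lost in 25 of the 42 fits that left out 1 library. The span of the gene model Gm20538 overlaps its last 500 bases on the same strand. Whether reads of this pair could be told apart was not tested. Ndufa1, Ndufa3, Ndufb3, Ndufb5, Ndufb6 and Ndufs6, also called, had differences of -0.23 to -0.12. Ndufa6 was the highest of the complex at 0.04 ± 0.046 (adjusted p = 0.544, limma). Ndufa4 carries a complex I name, but its protein is found in complex IV; its difference was -0.10 ± 0.084 (adjusted p = 0.420, limma).

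Complex II, succinate dehydrogenase, is shared with the citric acid cycle and is encoded in the nucleus in full. None of its 4 genes was called by limma, edgeR or DESeq2, and none had an unadjusted p under 0.05 in limma. Sdha, the flavoprotein, had 1336 to 1734 reads in Young (median 1504) and 1247 to 1640 in Old (median 1416), with a difference of -0.06 ± 0.041. For Sdhb, the iron-sulfur subunit, the difference was -0.03 ± 0.054, and for the membrane anchor Sdhc -0.10 ± 0.048 (adjusted p = 0.149, limma).

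The other anchor, Sdhd (chr9:50596357-50603812, minus strand), was the most uneven of the well-counted members. It had 148.7 to 551.4 reads in Young (median 329.6) and 28.2 to 484.3 in Old (median 286.3). At ZT8 the Old libraries had 28.2, 285.8 and 322.1 reads, and the Young ones 163.6, 174.1 and 459.6. The low library, Old ZT8 replicate 1, is 1 of the 2 farthest from their group over all genes. The difference over the day was -0.17 ± 0.193 (adjusted p = 0.573, limma), so its standard error exceeded the estimate.

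Complex III passes electrons from ubiquinol to cytochrome c. Of its 8 genes 2 were lower in Old, Uqcr10 and Uqcrfs1, and the median was -0.10. Uqcr10, a small supernumerary subunit (ENSMUSG00000059534, chr11:4701973-4704342, minus strand), had 1007 to 1343 reads in Young (median 1189) and 957 to 1203 in Old (median 1063). It fell by 0.17 ± 0.039 with an adjusted p of 0.000956 (limma) and was lower at all 7 times. The ages overlapped, with 1 Young library, a ZT12 library at 1007, under the Old median. Uqcrfs1, the Rieske iron-sulfur protein, had 1194 to 1841 (median 1469) and 1140 to 1841 (median 1315) reads, with a difference of -0.15 ± 0.052 (adjusted p = 0.0315, limma). Uqcrc2, a core protein used as the blot marker of this complex, was at -0.07 ± 0.047 (adjusted p = 0.331, limma).

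Uqcrh, the hinge protein that contacts cytochrome c1, had an estimate above 0 within the same complex. Its reads were 4854 to 6651 in Young (median 5492) and 5063 to 6796 in Old (median 5906). The difference was 0.10 ± 0.040 (adjusted p = 0.0633, limma), just outside the threshold, and it was called higher by DESeq2 (adjusted p = 0.0377). Its processed pseudogenes Uqcrh-ps1 and Uqcrh-ps2 had means of at most 1.97 in either deposited table.

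Complex IV reduces oxygen. Of its 12 genes 4 were lower in Old, the nuclear subunits Cox6a1, Cox6b1, Cox7a2 and Cox7b, which surround the catalytic core, and the median was -0.12. Cox6b1, a subunit on the side of the intermembrane space (ENSMUSG00000036751, chr7:30616861-30626151, minus strand), had 2497 to 3808 reads in Young (median 3156) and 2228 to 3297 in Old (median 2830). It fell by 0.18 ± 0.047 with an adjusted p of 0.00341 (limma), and was lower at all 7 times. Cox6a1 had 1805 to 2443 (median 2071) and 1445 to 2227 (median 1893) reads, a fall of 0.16 ± 0.046 (adjusted p = 0.00823, limma). The ranges of both genes overlapped between the ages.

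Cox4i1, the largest nuclear subunit and a common mitochondrial reference, had 1420 to 1956 reads in Young (median 1598) and 1474 to 1924 in Old (median 1671), with a difference of 0.03 ± 0.041 (adjusted p = 0.685, limma). Cox7a2l, a paralog of Cox7a2 that links complexes III and IV, was at 0.11 ± 0.062 (adjusted p = 0.197, limma), and its estimate was lower in Old at 1 time. By contrast Cox7a2, the subunit itself, fell by 0.15 ± 0.044 (adjusted p = 0.00815, limma). Whether these paralogs differed from each other was not tested.

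Tissue-restricted forms of complex IV were at or near the floor. Cox7a1, the heart and muscle form, was just inside the limit with deposited means of 20.6 in Young and 12.3 in Old; its difference of -0.51 ± 0.28 was the lowest of all members and not called (adjusted p = 0.192, limma). Just outside lay Cox6b2, a testis form, with means of 15.1 and 4.54, while Cox6a2 was at 1.59 and 2.01 and Cox4i2 at 0.209 and 0.449. Cox8b and Cox8c were listed at 0 in every library. In complex I, Ndufs5 missed the limit with means of 10.6 and 9.98, and Ndufa4l2 was at 0 throughout. Ndufs5 is given here for its low count, not as a tissue-restricted form. Whether reads matching several places in the genome were left out of its count was not tested.

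ATP synthase showed the lowest median of the complexes, -0.15, with 7 of its 17 genes lower in Old. Without Cox7a2l, the other 11 genes of complex IV also had a median of -0.15, against -0.12 over its 12 genes. By part of the enzyme these were 3 of 5 genes of the catalytic F1 part (Atp5a1, Atp5b and Atp5e) and 1 of 4 of the peripheral stalk (Atp5j). None of 3 genes of the proton-carrying c-ring was among them, and 3 of 4 of the small membrane subunits were (Atp5j2, Atp5k and Atp5mpl). Atp5s, counted among the 17 as factor B, lay outside these parts and was not called, at -0.24. A difference between complexes was not tested.

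Atp5j encodes coupling factor 6 of the stalk (ENSMUSG00000022890, chr16:84827866-84835625, minus strand). It had 499.5 to 1003.6 reads in Young (median 721.3) and 276.6 to 776.4 in Old (median 597.7). The level fell by 0.39 ± 0.082 with an adjusted p of 0.000316 (limma), and was lower at 6 of 7 times, ZT0 being the exception. At ZT8 the Old libraries had 276.6, 410.1 and 660.9 reads, against 556.6, 684.0 and 694.9 in Young. The lowest of these is again Old ZT8 replicate 1, but at ZT4 too the Old values of 402.8, 477.4 and 729.4 lay mostly under the Young 669.7, 860.7 and 1003.6.

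Atp5a1, the alpha subunit and blot marker of complex V, had 4482 to 5926 reads in Young (median 5190) and 3648 to 6141 in Old (median 4690). It fell by 0.18 ± 0.043 (adjusted p = 0.00167, limma) and was lower at all 7 times. Atp5k, the small e subunit at the dimer interface, fell by 0.24 ± 0.064 (adjusted p = 0.00511, limma), with 1061 to 2041 (median 1276) and 895 to 1552 (median 1103) reads. Also in the F1 part, the gamma subunit gene Atp5c1 was not called, at 0.05 ± 0.058 (adjusted p = 0.554, limma).

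The c-ring is made from 3 genes with the same mature protein, Atp5g1, Atp5g2 and Atp5g3, and their read counts were far apart. Counts may miss reads that match several places in the genome, so they need not rank these genes by expression. Gapdh too had few reads, with medians of 15.7 in Young and 14.9 in Old. Whether reads were lost in this way was not tested. Atp5g3 had 7844 to 11636 reads in Young (median 9769) and 6522 to 10854 in Old (median 8841), a difference of -0.14 ± 0.056 (adjusted p = 0.0744, limma). Atp5g1 had 53.8 to 148.1 (median 115.9) and 58.3 to 165.6 (median 94.4) reads. Atp5g2, just inside the limit with deposited means of 12.0 and 11.7, had 1.05 to 27.5 and 0 to 23.3 reads, and its difference of 0.25 ± 0.30 was the highest of all members and not called.

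**Figure D2:**
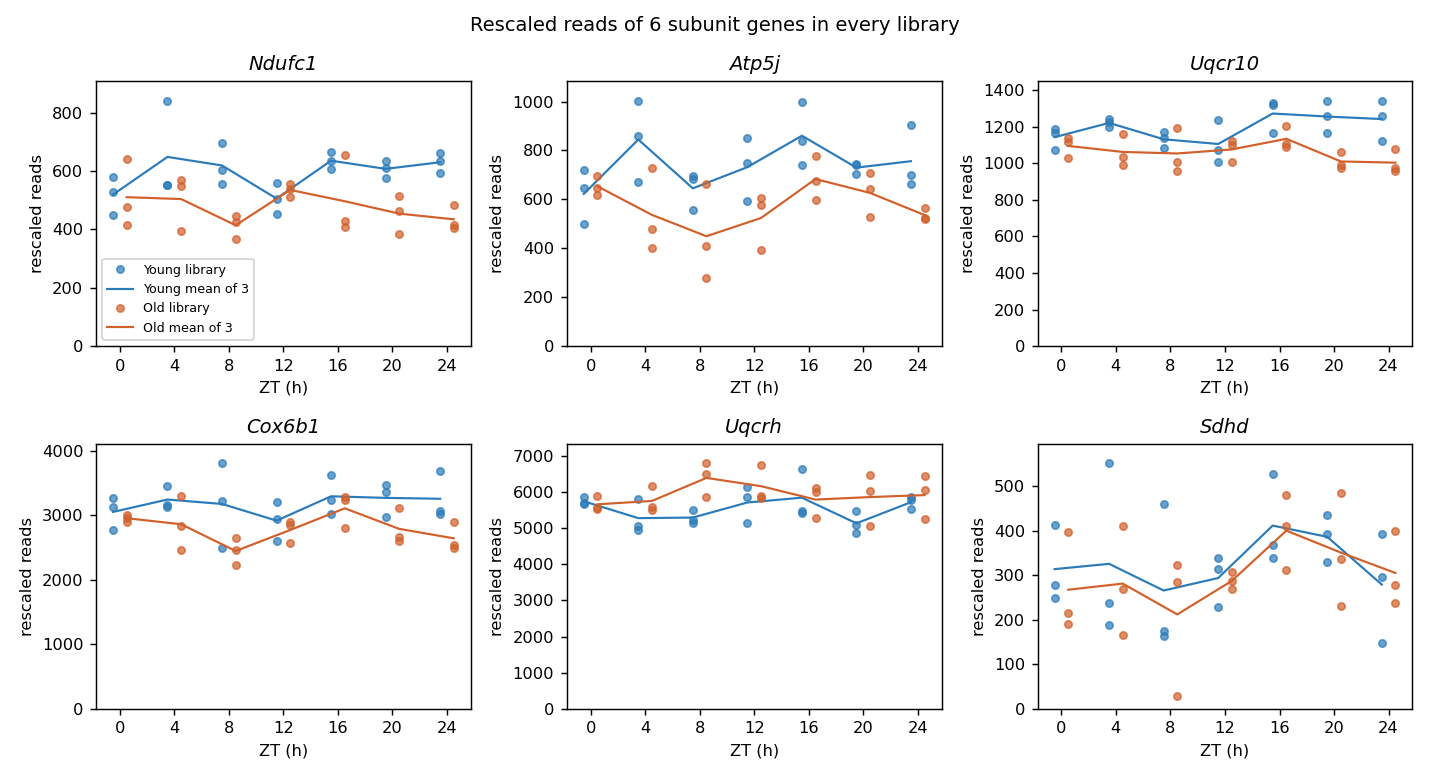
Rescaled reads (linear axis from 0) of Ndufc1, Atp5j, Uqcr10, Cox6b1, Uqcrh and Sdhd in each of the 42 libraries by time, with a line through the means of 3. The Old line runs below the Young line at most times for the first 4 and mostly above it for Uqcrh, and Sdhd has 1 Old library at 28.2.

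Marker scores of macrophages and of other cells were added to the level fit as covariates. With the mean log2 score of the B cell markers as a covariate in the same fit, 1 member was called lower, Atp5j, the median of the 76 was -0.05, 55 estimates were below 0 and the median standard error rose from 0.057 to 0.080. The share of all genes called lower fell from 11.7% to 5.54% in that fit. The T cell score alone left 6 calls with a median of -0.09 and a median standard error of 0.070. With the erythroid, macrophage or mast cell score the median stayed near -0.11, at -0.11, -0.10 and -0.11, with 14, 20 and 24 calls and median standard errors of 0.062, 0.056 and 0.057. Scores of B, T and mast cells together left 1 call, again Atp5j, with a median of -0.05 and a background of 5.84% lower and 5.57% higher. The mesothelial and fibroblast score left 1 call, Ndufa3 and not Atp5j, so no gene was called in all the score fits. Its median was farther from 0, at -0.14, with a median standard error of 0.137. Each of the 24 genes kept an estimate below 0 in all these fits. The single-score fits were chosen after seeing the data, and the part of other cells in the result was not tested.

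**Figure D3:**
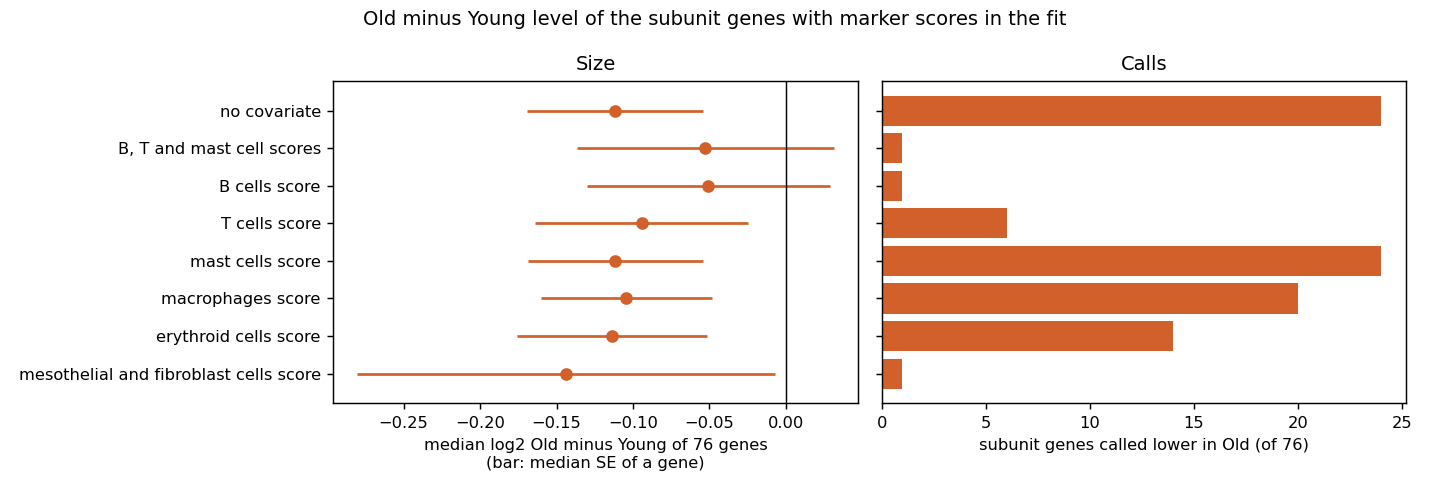
Left, median log2 Old minus Young of the 76 genes with the median standard error of a gene, for fits without a covariate and with marker scores. Right, the number of genes called lower, which is 24 without a covariate, 1 with the B cell score and 24 with the mast cell score.

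By time of day the difference was uneven, but no member varied past the test. The median of the 76 differences was -0.03 at ZT0, -0.18 at ZT4, -0.15 at ZT8, -0.08 at ZT12, -0.04 at ZT16, -0.12 at ZT20 and -0.16 at ZT24, with a median standard error of 0.15 for a single gene. Members lower at an unadjusted p under 0.05 numbered 17 at ZT4, 9 at ZT8, 3 at ZT12, 1 at ZT16, 7 at ZT20, 13 at ZT24 and none at ZT0. Of all genes, 7.44%, 9.1%, 5.6%, 4.6%, 5.98%, 6.59% and 5.35% were lower at that threshold at these times in the same order, so the members' counts at ZT0, ZT12 and ZT16 lay under the share of all genes. After adjustment 1 member was called at 1 time, Ndufc1 at ZT8, where 2.04% of all genes were called lower. Its Old reads there were 369.0, 426.5 and 447.8 and its Young reads 557.6, 603.8 and 697.4. These 6 values did not overlap, and the difference was -0.58 ± 0.17 (adjusted p = 0.0458, limma). That call was lost in 16 of 42 fits without 1 library, with an adjusted p of 0.231 without Young ZT8 replicate 3.

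At the other times the lowest adjusted p belonged to Atp5c1 at ZT0 (0.466), Ndufa5 at ZT4 (0.0570), Cox6a1 at ZT12 (0.254), Ndufc1 at ZT16 (0.385), Uqcr10 at ZT20 (0.131) and Ndufc1 at ZT24 (0.0928), all by limma. The background called lower was 0.298% at ZT0, 0.67% at ZT4, 0.86% at ZT12, 0.281% at ZT16, 0.604% at ZT20 and 1% at ZT24. Ndufa5 at ZT4 differed by -0.49 ± 0.136 and Uqcr10 at ZT20 by -0.31 ± 0.103. Higher in Old at a single time were 0 members after adjustment (1 at ZT0 and 2 at ZT8 without it). A test of whether the age difference varied over the times called no member in limma, where 0 had an unadjusted p under 0.05 and 0.0248% of all genes were called. It called none in edgeR (background 0.0579%) or DESeq2 (0.215%).

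**Figure D4:**
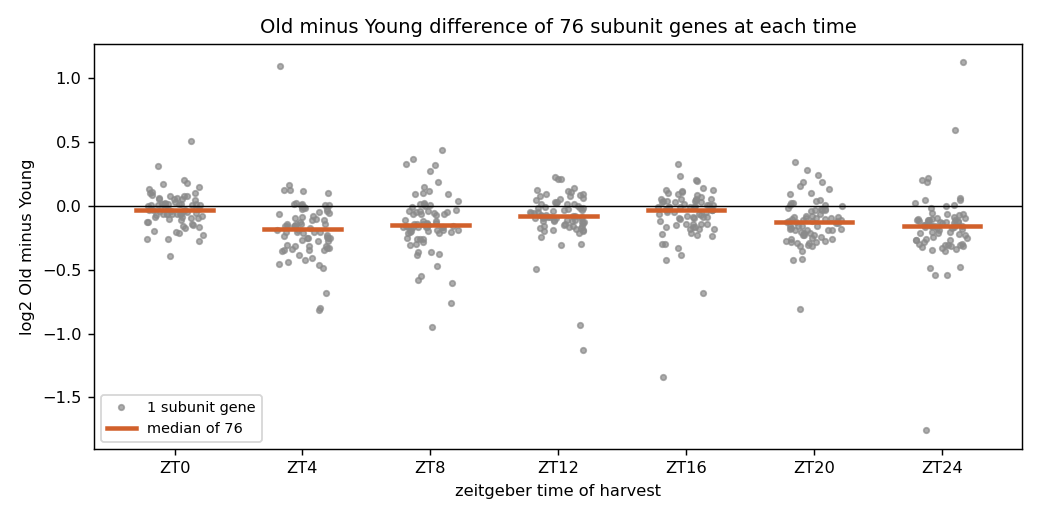
Log2 Old minus Young of each of the 76 genes (grey points) at each zeitgeber time, with the median as a bar. The bar is nearest 0 at ZT0 and ZT16, at -0.03 and -0.04, and lowest at ZT4, at -0.18.

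No member was called rhythmic at either age. A cosine and sine of 24 h were fitted within each deposited table, and limma called none of the 76 in Young, where 3.62% of 12113 genes were called, and none in Old, where 0.308% of 12016 were. Without adjustment 4 members (5.26%) in Young and 3 (3.95%) in Old passed p under 0.05, against 17.2% and 9.01% of all genes, and none was called by edgeR (background 3.86% and 0.3%) or DESeq2 (6.5% and 0.858%). The fitted peak-to-trough fold had a median of 1.10 in Young and 1.12 in Old over the members, against 1.21 and 1.21 over all genes tested. By complex the median in Young was 1.12 for I, 1.15 for II, 1.10 for III and 1.09 for each of IV and V.

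Ndufb2, a membrane-arm subunit of complex I, had the lowest p of the members at both ages. In Young its fitted fold was 1.21 with a peak at ZT 21.7 ± 1.28 h (adjusted p = 0.146, limma), and in Old 1.29 with a peak at ZT 18.2 ± 1.04 h (adjusted p = 0.406, limma). Its 3 Old libraries had 583.1, 559.2 and 604.2 reads at ZT8 and 812.2, 708.4 and 791.1 at ZT16. In Young they had 650.9, 651.6 and 654.7 at ZT8 and 815.2, 791.3 and 750.2 at ZT24. Wider fitted folds, such as 2.82 for Atp5g2 in Young and 2.12 for Sdhd in Old, came from genes with few or uneven reads (adjusted p = 0.303 and 0.585, limma).

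With 7 free levels in place of the cosine, limma called no member in Young (background 2.91%) and none in Old (0.266%), with 3 and 1 at an unadjusted p under 0.05. edgeR called none at either age (3.35% and 0.3%), and DESeq2 1 in Young, Atp5c1, and none in Old (6.85% and 2.16%). The lowest adjusted p was 0.15 for Atp5c1 in Young and 0.530 for Cox7a2 in Old. A difference in rhythm between the ages was called for no member by limma (1 at an unadjusted p under 0.05, Atp5l; background 0%), edgeR (0.0331%) or DESeq2 (0.0603%).

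ZT0 and ZT24 are the same phase a day apart, and no member differed between them by limma (1 at an unadjusted p under 0.05 and a background of 0% at each age), by edgeR (0% at each age) or by DESeq2 (0.00826% in Young and 0.00833% in Old). The median of ZT24 minus ZT0 was 0.02 in Young and -0.12 in Old, where 64 of 76 estimates were below 0, with a median standard error of 0.16 for 1 gene. Means of the log2 levels over all members were 9.51 ± 0.056 (SD, n = 3) at ZT0 and 9.52 ± 0.10 at ZT24 in Young. In Old they were 9.48 ± 0.075 and 9.35 ± 0.069. The Old libraries ranged from 9.44 to 9.57 at ZT0 and from 9.30 to 9.43 at ZT24, without overlap.

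**Figure D5:**
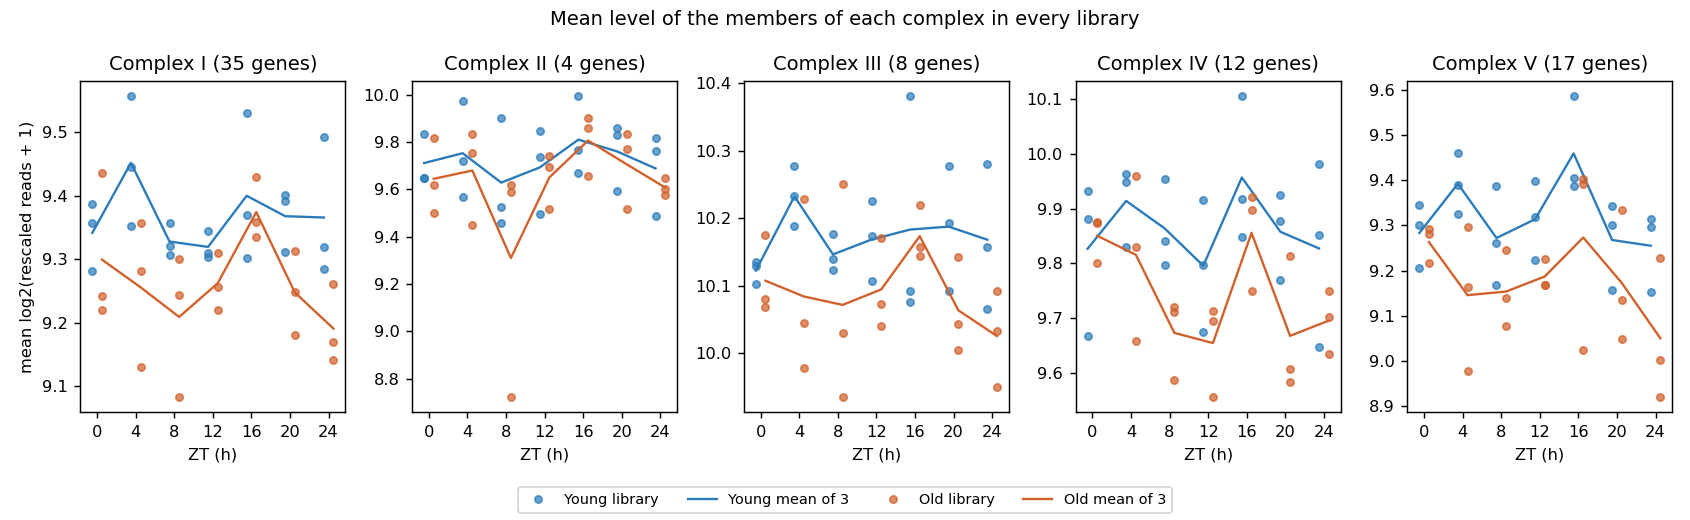
Mean log2(rescaled reads + 1) of the genes of each complex in every library by time, with lines through the means of 3 (each panel has its own axis, which does not start at 0). The Young and Old points overlap at most times, and complex II has 1 Old library at 8.72.

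The spread between the 3 libraries of a group, as the median SD of log2 values, was 0.171 in Young and 0.189 in Old over the members, against 0.268 and 0.310 over all genes tested and 0.212 and 0.249 over the 8583 genes at or above the 5th percentile of the members' means. It was larger in Old for 56 of 76 members (73.7%), against 66.3% of all genes and 70.2% of those 8583. Of the members, 5 had an SD over 0.4 at both ages, Cox7a1, Atp5g2, Atp5s, Sdhd and Atp5l, and 4 of them had a deposited mean under 100 in Young. Atp5l, the g subunit of ATP synthase, had 20.1 to 110.2 reads in Young and 14.1 to 96.6 in Old, with a difference of -0.36 ± 0.17 (adjusted p = 0.127, limma).

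Other genes of the chain and its surroundings were read from lists chosen with earlier results of these data known, in the same level test. Of 8 mitochondrially encoded subunits tested, 2 were higher in Old: mt-Co1, the catalytic subunit of complex IV, by 0.18 ± 0.060 (adjusted p = 0.0259, limma) and mt-Nd5, a proton-pumping subunit of complex I, by 0.17 ± 0.050 (adjusted p = 0.0114, limma). The other 6 had estimates below 0. Of the 13 such subunits listed, mt-Co2, mt-Atp8 and mt-Nd4l had 0 reads in every library, and mt-Co3 and mt-Atp6 a median of 0 at both ages. Counted reads of the mitochondrial genome, in which these genes are all but missing, were 1.39% to 1.88% of the total in Young and 1.35% to 2.27% in Old. Cyc1, Cycs and Ndufab1, which belong to the chain but not to the naming rule, had adjusted p of 0.535, 0.690 and 0.550 (limma).

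Among assembly factors, none of 15 for complex I was called by limma (1 at an unadjusted p under 0.05). Sdhaf1, which helps to insert iron-sulfur clusters into complex II, was higher by 0.34 ± 0.103 (adjusted p = 0.0128, limma), the only one of 4. For complex III 1 of 6 was lower, Uqcc2, and 1 higher, Ttc19. For complex IV 4 of 22 were lower, Cmc2, Lrpprc, Cox20 and Pet100, Lrpprc by -0.29 ± 0.050 (adjusted p = 2.24e-05, limma); it encodes a protein that stabilises mitochondrial mRNAs. Atpif1, the inhibitor of ATP synthase, was lower by -0.28 ± 0.049 (adjusted p = 2.90e-05, limma), 1 of 5 on its list.

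None of 11 regulators of mitochondrial biogenesis tested was called by limma (0 at an unadjusted p under 0.05), including Nrf1 (0.06 ± 0.068), Gabpa (0.02 ± 0.086) and Tfam (-0.12 ± 0.063). Of 14 genes of the citric acid cycle 3 were lower, Dlst, Fh1 and Suclg1, and 13 estimates were below 0. Of 15 glycolysis genes tested 3 were lower and 1 higher: Ldha, which makes lactate, was at -0.17 ± 0.055 (adjusted p = 0.0206, limma) and Aldoa, the aldolase, at 0.31 ± 0.050 (adjusted p = 5.91e-06, limma). Import genes gave 2 lower of 13, Timm50 and Tomm7, and genes of supercomplexes and cristae 1 lower of 10, Higd1a.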

How the data were processed

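RNA of 42 macrophage libraries was made into QuantSeq 3' libraries, per the labels' protocols. Per the submitters' processing notes, the tools were STAR and DESeq2 and the build mm10; no source used here names the counter, annotation or versions. The authors deposited a normalized signal per gene, 1 table per age, equal to reads divided by a size factor per library. Dividing by each library's smallest step gave whole reads for 100% of values (within 0.001), which the count tests used. Reads are not independent molecules. Symbols and positions are from GENCODE M21 (GRCm38).

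Rhythms were fitted with limma 3.58.1 (R 4.3.3) within a table on log2(value + 1), mean of at least 10. Levels across ages used reads of all libraries rescaled by the median of ratios and 14 group means. Adding 1 shrinks log2 differences where reads are few. edgeR 4.0.16 and DESeq2 1.42.0 were alternatives. The fits were tested on simulated data. The members, lists and tests were chosen with earlier results of these data known. Named genes are, per complex, the 3 of lowest p and the highest and lowest differences, the lowest p in each other test and at each time, blot markers, the Sdh genes and paralog groups; other called genes are listed by name after their values were seen. No list was tested as a set, no protein sequence was used here, and 1 member is counted but not reported by itself here.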

Additional observations from a re-analysis of the deposited data

How the results depend on the processing

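None of the 24 called differences changed sign under any alternative run. The number of members called lower, 24, was 14 without the ZT24 libraries, 12 at an adjusted p under 0.01, 1 with the B, T and mast cell scores, and, in single-score fits chosen after seeing the data, 1 with B cells, 6 with T cells, 14 with erythroid cells and 1 with mesothelial and fibroblast cells; the cause was not tested. The members' median in these 4 fits was -0.05, -0.09, -0.11 and -0.14, so it was nearer 0 than the main -0.11 in the first and second. It was 23 to 26 under the other scalings (TMM 24, upper quartile 23, total reads 26), 20 without ZT0, 21 with a mean of at least 1 and 16 to 25 without 1 library. The lowest, 16, came without Young ZT16 replicate 2, Young ZT24 replicate 2, Old ZT0 replicate 3 or Old ZT8 replicate 2. Of the 24 calls, 15 held in all 42 fits without 1 library and 9 (among them Ndufa3, Ndufb6, Ndufb8, Ndufs6, Uqcrfs1, Cox7b, Atp5b and Atp5j2) were lost in 6 to 25 of them, with adjusted p up to 0.0898; 39 libraries ended at least 1 of these calls, and none more than 8. Members called higher, 0, became 1 (Uqcrh) with DESeq2 and array weights and were 0 to 1 without 1 library. Calls over 7 free levels in Young, 0, became 1 with DESeq2 and were 0 to 1 without 1 library, the 1 without Young ZT4 replicate 1. Calls at single times, 1, were 0 with a mean of at least 1, TMM or upper quartile scaling, 2 with total reads, edgeR or DESeq2, 6 with array weights and 0 to 2 without 1 library. The members' median of -0.11 was between -0.13 and -0.10 without 1 library. Replicate numbers gave no sign of pairing the samples, which such correlations cannot exclude. The median correlation of same-numbered deviations was -0.0061 in Young (-0.081 to 0.119) and -0.0098 in Old (-0.263 to 0.190). The replicate block gave 24 calls lower, 23 of them shared, and 0 at single times.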
